A study of Mus musculus with 6 samples.

Results

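The fibrillar collagens are the matrix proteins that assemble into banded fibrils, and 7 of their chains were followed here: Col3a1, Col1a1, Col1a2, Col5a1, Col5a2, Col5a3 and Col11a1. Every probe set paired with exactly 1 of these gene symbols was taken, which gave 16 probe sets out of 34945 with a single symbol. Col3a1 was chosen by its log2 difference between the siRNA groups in these same arrays, and the other chains for belonging to its family. Values of that comparison are therefore given for the 7 chains as a description, with no test.

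RNA came from GC1-Spg, an established mouse cell line of spermatogonial origin, grown in DMEM with serum. The control cells received scrambled siRNA at 100 nM and the silenced cells siRNA at 100 nM against mrhl, a noncoding RNA transcribed from within the gene Phkb, and were harvested 44 h later. Each group held 3 cultures, which the sample titles call biological replicates and number 1 to 3, and each culture was read on its own 1-colour Affymetrix array. All 6 cultures carried siRNA, and no untransfected cells were measured. The comparison asks what silencing mrhl does to transcript levels. Values below are deposited log2 expression values per probe set, and differences are mrhl siRNA minus scrambled siRNA on that scale.

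A fibrillar collagen is a trimer of chains wound into a long triple helix, secreted with propeptides that are cut off before fibrils form. Type I collagen combines the Col1a1 and Col1a2 chains and is the bulk of most fibrils, whereas type III collagen is made of the Col3a1 chain alone and is found with type I in compliant tissues. Types V and XI are minor fibrillar collagens that help to start fibrils and limit their width. In the testis these proteins lie mainly in the wall of the seminiferous tubule and the interstitium, not in germ cells.

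Array medians lay within 0.11 of each other. Of 45037 probe sets that were not controls, the 33778 with a mean of at least 3.62, the 25th percentile, were tested, and 0 (0%) passed an adjusted p of 0.05 (limma, smallest adjusted p = 0.965). At an unadjusted p under 0.05 there were 1163 (3.44%), 425 higher (1.26%) and 738 lower (2.18%). Markers of the labelled cell type were partly dim: of 18 spermatogonial markers on the array 11 were bright enough to be tested, and the defining germ cell genes Ddx4 and Dazl stayed under 3.62 in their means. Of the 11 tested, 4 had a mean of at least 5.23, the median of all probe sets. The control means of these were 7.49 for Uchl1, 6.78 for Etv5, 6.38 for Id4 and 5.93 for Gfra1. Markers of fibroblasts and myoid cells, which are known producers of these collagens, were bright enough in 11 of 14. Among them the control means were 12.92 for Vim, 10.51 for Acta2 and 8.99 for Pdgfra, but 4.53, 3.97 and 3.47 for the myoid genes Tagln, Cnn1 and Myh11, near the filter level. Of 15 Sertoli and Leydig markers on the array 14 were bright enough, and 7 of them had a mean of at least 5.23, the median of all probe sets. Their control means were 12.31 for Clu, 10.69 for Wt1 and 7.28 for Sox9, but 3.76 for Fshr. By its construction the filter keeps 75% of all probe sets. A gene counted as tested if any of its probe sets passed, so shares of genes are not bound to 75%. In RNA from whole cultures, fewer cells of a type and less RNA per cell cannot be told apart.

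The region before the start of Col3a1 is shown beside that of Col1a2, because the 2 chains are often made together and differed here. Each sequence is the 250 bases before the annotated start in RefSeq's GRCm38.p6, 5′ to 3′ on the plus strand, and capitals mark matches on either strand to CCAAT, to the GC box GGGCGG and to the TATA box TATAAA. The Col3a1 sequence is chr1:45311288-45311537 and the Col1a2 sequence is chr6:4505368-4505617.
Col3a1: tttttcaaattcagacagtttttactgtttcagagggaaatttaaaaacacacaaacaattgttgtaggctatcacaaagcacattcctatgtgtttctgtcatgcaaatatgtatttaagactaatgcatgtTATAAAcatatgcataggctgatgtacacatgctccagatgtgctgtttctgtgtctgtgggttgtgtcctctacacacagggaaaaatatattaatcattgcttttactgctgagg
Col1a2: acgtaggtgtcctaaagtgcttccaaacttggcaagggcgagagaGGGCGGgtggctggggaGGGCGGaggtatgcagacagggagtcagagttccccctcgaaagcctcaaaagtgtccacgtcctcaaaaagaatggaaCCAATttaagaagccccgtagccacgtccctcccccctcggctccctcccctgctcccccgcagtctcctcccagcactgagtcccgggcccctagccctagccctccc
The Col3a1 window held 1 TATA box, 117 bases before the start, and 0 matches to CCAAT or the GC box. The Col1a2 window held 2 GC boxes, 205 and 188 bases before the start, and 1 CCAAT, 109 bases before it, with 0 TATA boxes. Over all 32851 such windows, 33.8% held CCAAT, 32.7% the GC box and 12.4% the TATA box. G and C made up 35.2% of the Col3a1 window, against 62.0% for Col1a2 and 62.0% to 76.4% over the windows of Col1a2, Col5a1, Col5a3 and Col11a1. The windows of Col5a1, Col5a3 and Col11a1 run past the annotated gene start into the gene. No window was available for Col1a1 and Col5a2. The median window had 52.4%, and 5.41% of all windows were as low as Col3a1 or lower. These are matches of letters and do not show which factors bind.

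Col3a1, the only chain of type III collagen, was higher in every array of mrhl siRNA than in every array of scrambled siRNA. Its brighter probe set read 6.27, 5.61 and 5.68 in scrambled replicates 1, 2 and 3, and 8.28, 7.74 and 7.67 in mrhl replicates 1, 2 and 3. The nearest arrays of the groups were thus 1.40 apart, a gap wider than the spread within each group, with means of 5.85 ± 0.36 and 7.89 ± 0.34 (SD, n = 3). The difference was 2.04, or 4.11-fold, and it was 2.01, 2.12 and 1.98 within replicate numbers 1, 2 and 3. Of the 33778 tested probe sets, 872 (2.58%) had groups that did not overlap with mrhl siRNA higher. Only 2 of them (0.00592%) were also at least 4-fold higher: this one and a dim probe set with no named gene. Col3a1 was chosen by this difference, so its place among them is no test. The dim probe set had a control mean of 2.70, under the filter level, and passed only through its mrhl mean of 4.73.

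The second Col3a1 probe set lay under the filter level and was not in the fit. It read 1.65, -0.53 and 2.10 after scrambled siRNA and 4.10, 3.77 and 3.56 after mrhl siRNA, so its groups did not overlap either. All 3 control arrays stood well under 3.62, where a signal above background is not shown, and only 2 of the 3 mrhl arrays stood above it. Its differences of 2.45, 4.29 and 1.46 in numbers 1, 2 and 3 had the direction of the brighter probe set, and over each array left out in turn its difference ran from 1.93 to 3.24. With controls this low, only the direction of this probe set can be read, not its size. Both probe sets were read on the same 6 arrays, so they are 2 readings of the same RNA and not further replicates.

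**Figure D1:**
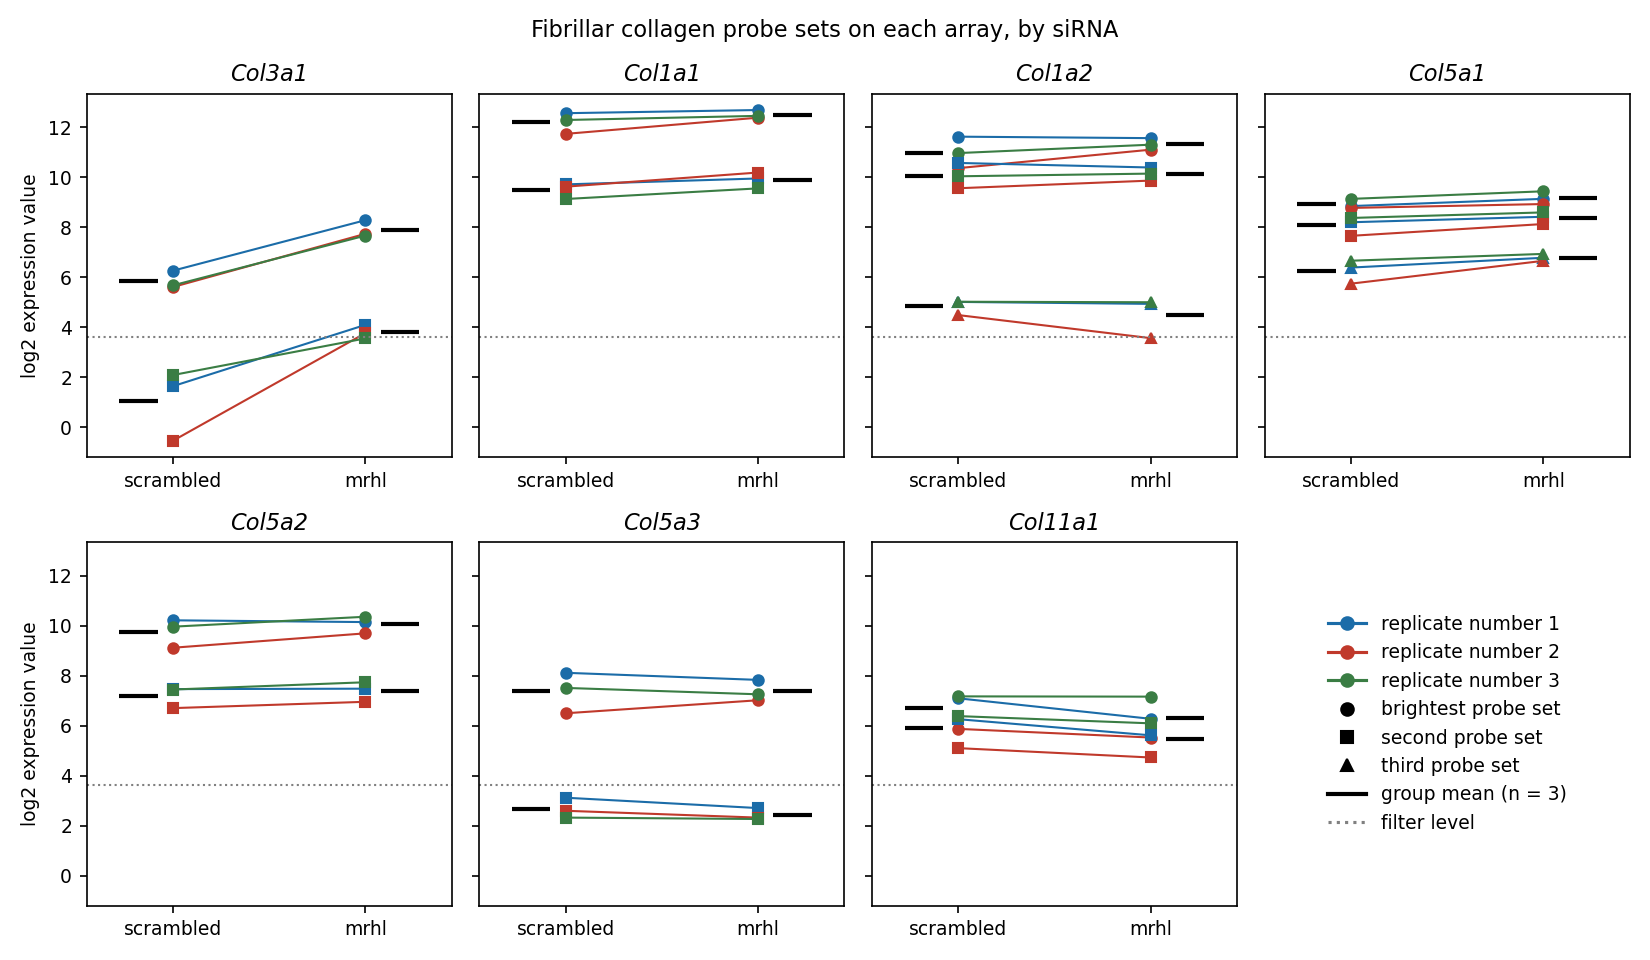
Log2 expression value (vertical axis) of every fibrillar collagen probe set on the arrays of scrambled and mrhl siRNA; lines join arrays of equal replicate number, black bars are group means (n = 3) and the dotted line is the filter level of 3.62. Both Col3a1 probe sets climb in all 3 numbers, from a mean of 5.85 to 7.89 for the brighter, whereas the groups overlap in the 14 probe sets of the other 6 genes.

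The other 6 chains did not show a shift of this size. Over their 14 probe sets the differences ran from -0.44 to 0.52 with a median of 0.22, and the groups overlapped in all 14. Over all tested probe sets the groups did not overlap in 8.4%, and the median difference was -0.03. Of the 14, 9 were positive and 5 negative, where 43.8% of all tested probe sets were positive. Probe sets of 1 gene share their RNA, so these 14 stand for 6 genes.

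The type I chains, the usual partners of type III in mixed fibrils, differed little. The brighter Col1a1 probe set read 12.56, 11.73 and 12.28 after scrambled siRNA and 12.68, 12.38 and 12.45 after mrhl siRNA. Scrambled replicate 2 was the low array, and the other 5 lay between 12.28 and 12.68. The difference was 0.31, or 1.24-fold, against SDs of 0.42 and 0.16 (n = 3), and without scrambled replicate 2 it was 0.08. Within numbers 1, 2 and 3 the difference was 0.13, 0.65 and 0.16. Being higher in all 3 numbers held for 14.1% of all tested probe sets. The second Col1a1 probe set read 9.71, 9.62 and 9.13 and then 9.95, 10.19 and 9.55. Its difference was 0.41, positive in 3 of 3 numbers, and over each array left out in turn it ran from 0.23, without scrambled replicate 3, to 0.58, without mrhl replicate 3. It was 0.26 without mrhl replicate 2.

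Col1a2, the other type I chain, was read by 3 probe sets that did not move together. The brightest read 11.62, 10.36 and 10.96 after scrambled siRNA and 11.56, 11.10 and 11.30 after mrhl siRNA. Scrambled replicate 2 was again the lowest array, and the difference within number 1 was -0.06 against 0.74 within number 2. The mean difference was 0.34 with all arrays and 0.03 without scrambled replicate 2. The next probe set had a difference of 0.08, which became -0.17 without that array. The third, at a mean of only 4.67, had -0.34, because mrhl replicate 2 stood at 3.57 and the other 5 arrays between 4.49 and 5.02; without that array it was 0.13.

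The type V chains, which nucleate type I fibrils, fell into 2 patterns. Col5a1, present in most type V trimers, was positive in all 3 numbers at all 3 of its probe sets, with differences of 0.25, 0.30 and 0.52. The brightest read 8.85, 8.77 and 9.13 after scrambled siRNA and 9.13, 8.93 and 9.44 after mrhl siRNA. These groups overlapped, with SDs of 0.19 and 0.26 (n = 3). Across all tested probe sets, 14.1% were higher in all 3 numbers. Without scrambled replicate 2 the 3 Col5a1 differences were 0.18, 0.09 and 0.27.

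Col5a2, the second chain of the usual type V trimer, read 10.21, 9.12 and 9.96 after scrambled siRNA and 10.14, 9.69 and 10.36 after mrhl siRNA at its brighter probe set. Scrambled replicate 2 was the lowest array and mrhl replicate 2 the next lowest, so both low arrays were of number 2. The difference was 0.30, and 0.19 at the other probe set. Without scrambled replicate 2 these became -0.02 and -0.06, with mrhl replicate 2, low too, left without its partner. Within numbers 1 and 3 the differences were -0.07 and 0.40 at the brighter probe set and 0.02 and 0.29 at the other. Col5a3, a chain of restricted expression, read 8.12, 6.50 and 7.51 and then 7.83, 7.02 and 7.26 at its tested probe set. Its difference was -0.0059, with an SD of 0.82 in the controls, and it was negative in numbers 1 and 3 and positive in number 2. Over each array left out in turn it ran from -0.44 to 0.36. The other Col5a3 probe set was below the filter level, between 2.28 and 3.13.

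Col11a1, a chain of the minor fibrillar type XI that can also join type V trimers, had the lowest differences of the 7 genes at its probe sets. The brighter read 7.10, 5.88 and 7.18 after scrambled siRNA and 6.28, 5.53 and 7.17 after mrhl siRNA. The other read 6.26, 5.11 and 6.39 and then 5.62, 4.73 and 6.10. The groups overlapped at both, and replicate number 2 gave the lowest array of each group. The differences were -0.39 and -0.44, each negative in 3 of 3 numbers, where 23.4% of all tested probe sets were lower in all 3. Within numbers 1, 2 and 3 they were -0.82, -0.34 and -0.01 at the brighter probe set and -0.64, -0.37 and -0.29 at the other. Single arrays moved them strongly: without mrhl replicate 2 they were 0.0060 and -0.06, and without scrambled replicate 2 they were -0.81 and -0.84. Over each array left out in turn they ran from -0.81 to 0.0060 and from -0.84 to -0.06. The 3 scrambled arrays had SDs of 0.73 and 0.71, larger than either difference.

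**Figure D2:**
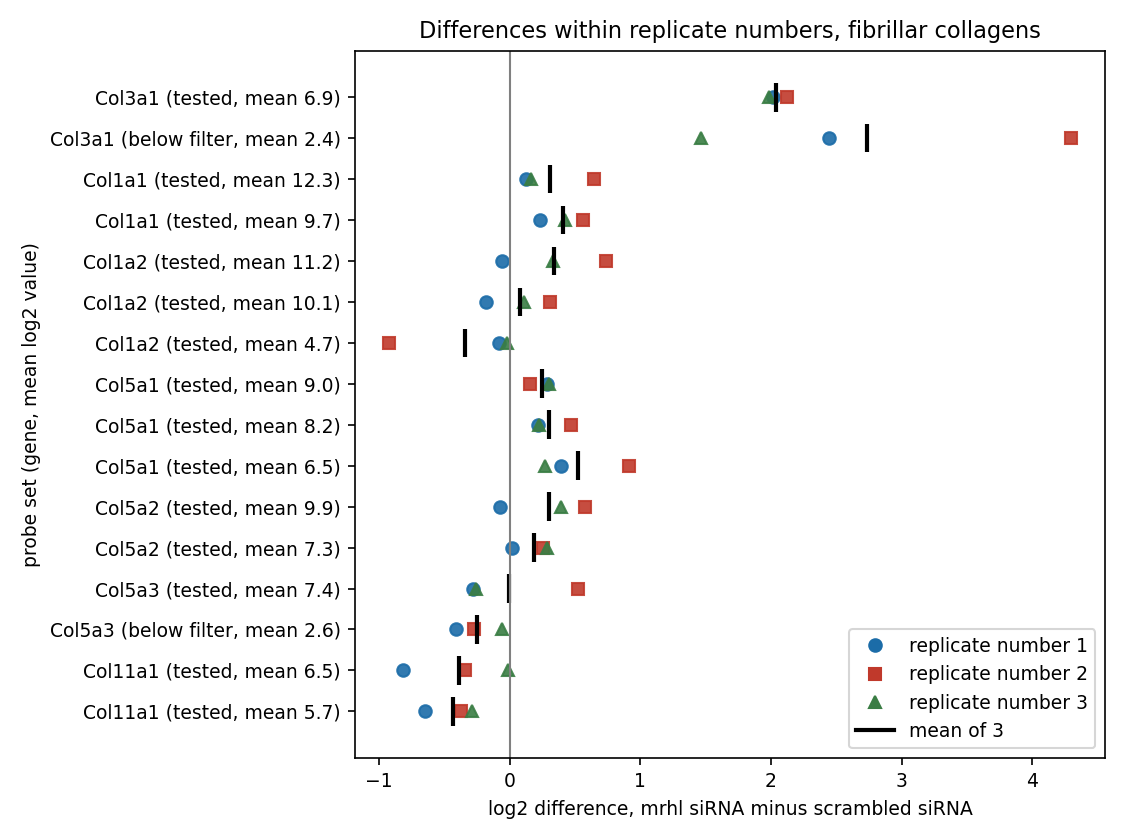
Log2 difference, mrhl siRNA minus scrambled siRNA (horizontal axis), within replicate numbers 1, 2 and 3 for each of the 16 fibrillar collagen probe sets, with the mean of the 3 as a black bar. The brighter Col3a1 probe set has its 3 points within 1.98 to 2.12, and the means of the other genes' probe sets lie between -0.44 and 0.52.

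Levels of the chains other than Col3a1 also differed between cultures. The replicate number means, each over the 2 arrays of a number, spanned 0.44 to 1.47 in the 14 probe sets, with a median of 0.76. The median over all tested probe sets was 0.37. In all 14 this span was larger than the size of the siRNA difference, whose median was 0.31, as it was in 83.9% of all tested probe sets. For the brighter Col3a1 probe set the span was 0.60, against a difference of 2.04.

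The low cultures were those of replicate number 2. Read through its brightest probe set, scrambled replicate 2 was the lowest control array in 7 of 7 genes, and mrhl replicate 2 was the lowest mrhl array in 6 of 7, all but Col3a1. Over all tested probe sets these shares were 33.2% and 40.0%. Scrambled replicate 2 stood lower than its mrhl partner in most of these genes, so the median difference of the 14 probe sets was 0.39 in number 2 against -0.06 in number 1 and 0.19 in number 3. Without scrambled replicate 2 the median of the 14 was -0.04, with 6 of 14 positive, and the median of all tested probe sets was -0.03. It was 0.35 without scrambled replicate 1 and 0.09 without mrhl replicate 3, and between 0.18 and 0.32 without any other single array. Here and in the values above, leaving out scrambled replicate 2 alone keeps mrhl replicate 2, often low too, without its partner. Numbers 1 and 3, with both arrays of each, had the medians of -0.06 and 0.19 given above. The small positive median of the other chains thus varied with the array left out and between replicate numbers. The Col3a1 difference, from 1.85 to 2.25 over the same single arrays left out, kept its size.

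**Figure D3:**
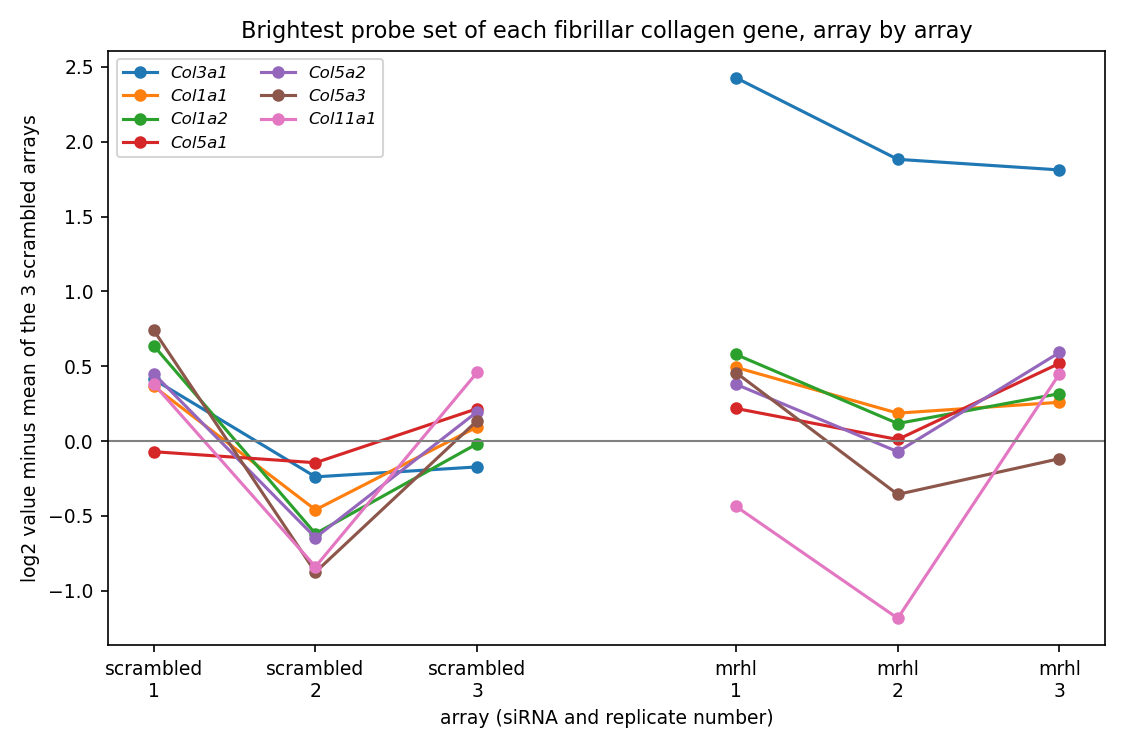
Log2 value of the brightest probe set of each of the 7 genes on the 6 arrays, as the distance from that probe set's mean over the 3 scrambled arrays; lines only link the arrays of a gene and imply no order. All 7 genes are at their lowest control value in scrambled replicate 2, and Col3a1 alone is at least 1.81 above its control mean on all 3 mrhl arrays.

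Markers of cells that make these collagens showed part of the same array pattern, the low scrambled replicate 2. Of the 11 tested fibroblast and myoid markers, 9 were lowest in scrambled replicate 2 among the controls and 4 were lowest in mrhl replicate 2. Over all tested probe sets these shares were 33.2% and 40.0%, so the mrhl side did not stand out. The mean log2 value over the 11 was 8.25, 7.62 and 8.13 in scrambled replicates 1, 2 and 3 and 8.09, 7.99 and 8.26 in the mrhl replicates, so the groups overlapped. None of the markers passed in either direction, and 9 were positive and 2 negative, where 43.8% of all tested probe sets were positive. Pdgfrb, Thy1 and Dpt were below the filter. Acta2, the smooth muscle actin of myoid cells, had 0.37 (SE 0.283), which was 0.11 without scrambled replicate 2, and S100a4, a calcium-binding protein of fibroblasts, had 0.23 (SE 0.141), neither past the test (limma, adjusted p = 0.965 for each). The myoid genes Tagln and Cnn1 were the 2 negative ones, with -0.69 and -0.11. The part of these markers in the collagen values was not tested. The 11 spermatogonial markers were lowest in scrambled replicate 2 in 3 cases, had a median difference of -0.05, and gave Kit with -0.39 (SE 0.238) and Stra8 with 0.43 (SE 0.365). The 14 Sertoli and Leydig markers had a median of -0.08, with -0.63 (SE 0.252) for the ligand Dhh, whose other probe set had -0.02, and 0.25 (SE 0.154) for Gata4. None of these 4 passed (limma, adjusted p = 0.965 for each).

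Col3a1 lies on chromosome 1 of GRCm38.p6 at chr1:45311538-45349706, and Col5a2 at chr1:45374331-45503282 is the next gene, 24624 bases away. These neighbours did not share their values: the differences were 2.04 for Col3a1 and 0.30 and 0.19 for the probe sets of Col5a2. Of the 3 annotated genes on each side, Col5a2 was the only one with a named probe set, and the other 5 are listed as pseudogenes. The next measured genes, looked up after their values could be seen, were Gulp1, Mettl21e and Ercc5 on one side and Wdr75 and Slc40a1 on the other. Gulp1, an adaptor of cell engulfment, had differences of -0.32, -0.21 and -0.22 at its probe sets. Those of the DNA repair gene Ercc5 were -0.24 and -0.29, those of Wdr75 -0.02 and -0.22, and those of the iron exporter gene Slc40a1 0.02 and 0.14. Mettl21e, below the filter level, had -0.56. The groups of Ercc5 did not overlap, with mrhl siRNA lower, as in 5.82% of all tested probe sets. None of these genes had a difference like that of Col3a1, which was chosen by its difference.

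The 4 fibrillar chains outside the set gave 0 past the test among the 3 that were bright enough. Col11a2, a partner of Col11a1 in type XI collagen, had a difference of 0.35 (SE 0.219) and Col2a1, the cartilage collagen, 0.07 (SE 0.297), neither past the test (limma, adjusted p = 0.965 and 0.986). Col2a1 changed sign without scrambled replicate 3, to -0.20, and without mrhl replicate 2, to -0.10. Col27a1 had 0.03 at its brighter probe set and -0.40 at the other. Col24a1 was below the filter level.

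Genes that make, assemble, bind, degrade or control the fibrillar collagens were read in 8 lists, and none of their 98 tested genes passed in either direction (limma, smallest adjusted p = 0.965; 0% of all probe sets passed). There were 50 positive and 48 negative differences with a median of 0.0050, from -0.57 to 0.83. That all 98 were smaller than that of Col3a1 is no test, since Col3a1 was chosen by its difference. At an unadjusted p under 0.05 there were 2 of 98, or 2.04%, against 3.44% of all tested probe sets. With the replicate number as a block there were 7 of 98, or 7.14%, of which 4 were higher and 3 lower, against 10.1% of all tested probe sets, and again 0 passed (limma, smallest adjusted p = 0.487). Groups did not overlap in 3 genes with mrhl siRNA higher and in 1 with it lower, where 2.58% and 5.82% of all tested probe sets did so. Among the 98, 48 were lowest in scrambled replicate 2 within the controls, against 33.2% of all tested probe sets.

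Enzymes and chaperones of the endoplasmic reticulum, which hydroxylate proline and lysine and fold the triple helix, gave 0 of 24 past the test, with 13 positive, 11 negative and a median of 0.01. The largest value was that of Creb3l1, a membrane-bound transcription factor that acts on type I collagen genes. It read 7.02, 5.22 and 6.07 after scrambled siRNA and 7.37, 6.71 and 6.72 after mrhl siRNA. Scrambled replicate 2 was its lowest array too, and the groups overlapped. Its difference was 0.83 (SE 0.434, limma, adjusted p = 0.965), positive in 3 of 3 numbers, and it was 0.39 without scrambled replicate 2 and 1.29 without scrambled replicate 1. The potassium channel gene Tmem38b, needed for collagen export, had 0.30 (SE 0.192) at its brightest probe set and -0.26 at another.

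Removal of the propeptides and crosslinking showed no shared direction. Of 5 tested genes of propeptide removal 0 passed, with a median of 0.07. Bmp1, the C-propeptide protease, had 0.27 (SE 0.239), which was 0.06 without scrambled replicate 2, and Pcolce2, an enhancer of that protease, had -0.33 (SE 0.174). Of the 4 tested lysyl oxidases 0 passed, with a median of -0.05, and all 4 were lowest in scrambled replicate 2 within the controls. Lox had -0.20 (SE 0.214). Loxl1 had 0.15 (SE 0.374), which became -0.26 without scrambled replicate 2 and -0.09 without mrhl replicate 3.

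Proteins that decorate fibrils held the only 2 genes of the 98 with an unadjusted p under 0.05. Tnxb, a matrix tenascin that binds fibrils and spaces them, read 6.61, 6.37 and 6.07 after scrambled siRNA and 6.80, 7.18 and 7.11 after mrhl siRNA. Col14a1, a collagen that coats fibrils, read 4.23, 4.34 and 4.14 and then 4.73, 4.73 and 5.27. The groups did not overlap in either gene. The differences were 0.68 (SE 0.192) for Tnxb and 0.67 (SE 0.188) for Col14a1, and neither passed (limma, adjusted p = 0.965 for each). The other tested Col14a1 probe set had -0.42. Over the 16 tested genes of this list 9 were positive and 7 negative, with a median of 0.02.

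Collagen receptors, degrading enzymes and regulators gave 0 of 8, 0 of 11 and 0 of 27 past the test. Among receptors the median was -0.03, and Itgb1, the beta subunit of the collagen-binding integrins, had -0.13 (SE 0.172). The receptor kinase Ddr2 had -0.15 (SE 0.136), whereas the mean of its 2 probe sets was 0.07. Among genes of degradation the median was 0.04, with -0.57 (SE 0.428) for the collagenase gene Mmp13 and -0.41 (SE 0.311) for the inhibitor Timp4. Within numbers 1, 2 and 3 Mmp13 had -0.63, -0.55 and -0.55. With the replicate block its unadjusted p was 0.00272 (limma), the lowest of the 7 under 0.05 among the 98 genes. With that block 0 of the 98 genes passed the adjusted threshold. Among regulators the median was -0.06, with 0.43 (SE 0.260) for Snai1, a transcription factor of mesenchymal cells that had 0.13 without scrambled replicate 2, and -0.50 (SE 0.326) for Smad7, the inhibitor of TGF-beta signalling. The other Smad7 probe set had 0.22.

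**Figure D4:**
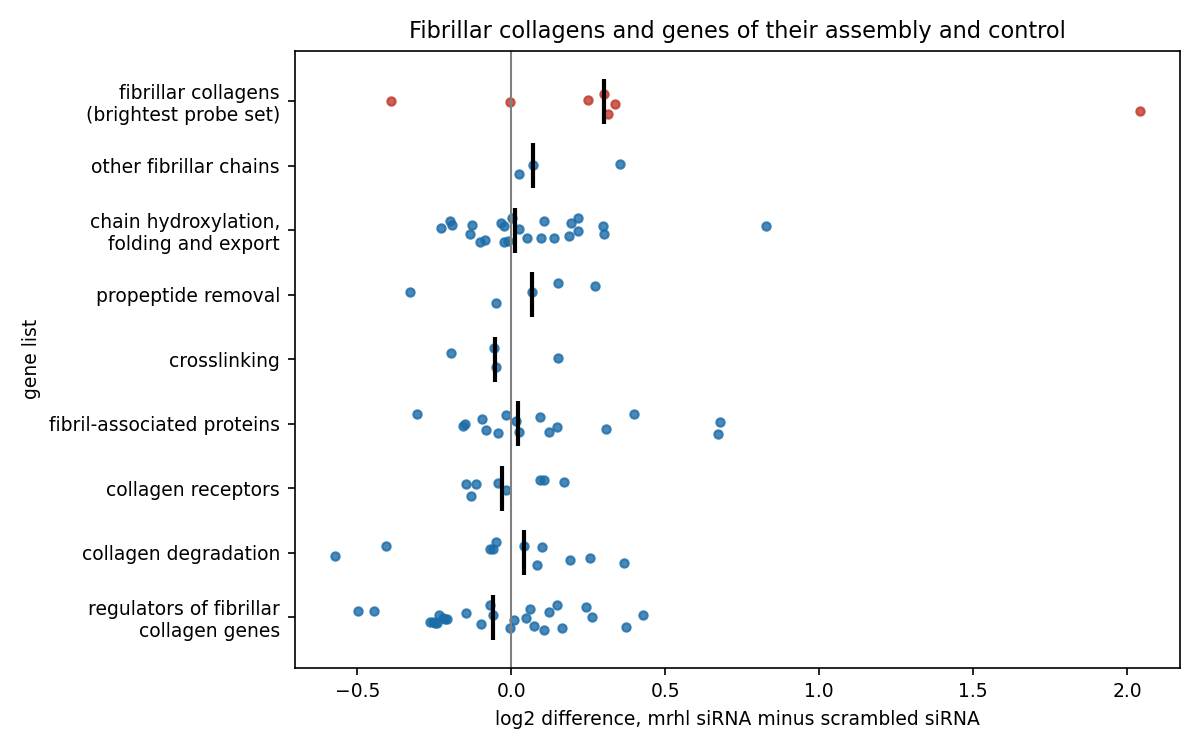
Log2 difference, mrhl siRNA minus scrambled siRNA (horizontal axis), with 1 point per gene for the 7 fibrillar collagens and the 8 lists of genes around them, and medians as black bars. Col3a1, which was chosen by this difference, lies at 2.04, and the highest of the 98 list genes at 0.83. Each list's median lies between -0.06 and 0.07.

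Genes with an array pattern most like that of Col3a1 were sought among the brightest probe sets of genes with an SD of at least 0.5 over the 6 arrays, 795 in all. The 5 highest Pearson correlations over the 6 arrays were 0.957 for Gsta2, a glutathione transferase, 0.946 for Gpc2, a glypican, 0.893 for Grik5, a glutamate receptor subunit, 0.889 for Lamb3, a laminin chain, and 0.885 for Cyp2c68, a cytochrome P450. These arrays fall into 2 groups, so such a correlation mostly restates a gap between groups. Gsta2 read 5.37, 4.96 and 4.98 after scrambled siRNA and 5.92, 6.10 and 6.01 after mrhl siRNA. The 5 genes had differences from 0.84 for Lamb3 to 1.15 for Gpc2, below that of Col3a1, which was chosen by its difference. Each was picked by its likeness to Col3a1, so a difference of this direction followed from the choice and is no test. The control mean was 3.26 for Cyp2c68, under the filter level, which it passed only through its mrhl arrays. Those of Gpc2 and Lamb3, 3.63 and 3.78, were near that level. None of the 5 was a fibrillar collagen, and among the other chains' probe sets the same correlation ran from -0.27 at Col11a1 to 0.69 at Col5a1.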

How the data were processed

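Expression was measured on 6 Affymetrix arrays, 1 per culture of GC1-Spg cells and 3 per siRNA. The authors deposited log2 values, 1 per probe set and array. GCOS and PLIER are named in the submitters' processing notes; how background was corrected and arrays were normalized is not given in the sources used here. That the scale is log2 was inferred from the range of the values, some of them negative.

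Of 45101 rows, 64 control rows were left out. The platform table paired 34945 probe sets with 1 symbol and 932 with several, which were not named; 34741 had a gene ID in the GRCm38.p6 gene table. Probe sets with a mean under the 25th percentile, 3.62, were not tested. Groups were compared with limma 3.58.1 (lmFit, eBayes) in R 4.3.3 over all 33778 tested probe sets, with Benjamini-Hochberg adjustment and a threshold of 0.05. The p-values measure the spread between these cultures, and 3 arrays per group limit the precision (median SE 0.192). This fit had no block for the replicate number, so its SEs include the differences between replicate numbers. With that block the median SE was 0.132. A list gene was read through its brightest tested probe set, and the 2 genes of each list with the smallest p were named where none passed. All probe sets of the 7 chains, the 3 genes on each side of Col3a1 and the 5 genes most like it were also named by rule. The chains, lists and alternatives were chosen with earlier results of these data known.

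Equal replicate numbers were read as pairs: deviations from the group means correlated at 0.534, 0.201 and 0.567 for numbers 1, 2 and 3, all above the limit of 0.1, and from -0.518 to 0.0684 for unequal numbers. Blocked values are printed only for calls they changed, counts they moved by over 1.5 times, the median SE and Mmp13. Alternatives were setting array medians to 0, quantile normalization, a filter at the median or none, a block for the replicate number, a trended and robust variance with and without that block, array weights, leaving out each array or both arrays of number 1, and averaging the probe sets of a gene. Figures were drawn with matplotlib 3.10.9.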

Additional observations from a re-analysis of the deposited data

How the results depend on the processing

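The Col3a1 difference of 2.04 stayed positive and within 1 SD of replicates under all alternatives run, from 1.85 without mrhl siRNA replicate 1 to 2.25 without scrambled siRNA replicate 1, and it was 2.39 as the mean of both Col3a1 probe sets, a choice made after seeing the data. Of the 16 collagen probe sets 11 were positive, and 8 to 14 when each array was left out in turn. The count of probe sets past the threshold was 0 in all alternatives but the replicate block with trended and robust variance, where it was 2: Smarca4, a chromatin remodeller gene named after its value was seen, at 1.20 (limma, adjusted p = 0.0445), and Col3a1, for which it is no test, since Col3a1 was chosen by this difference. With the replicate block alone it was 0, with 3411 probe sets at an unadjusted p under 0.05, and the block alone changed no call. The count of collagen pathway genes past the threshold was 0 in all alternatives. Among the 7 chains, signs changed at probe sets of Col1a2, Col5a2, Col5a3 and Col11a1 when single arrays were left out, as given above. The tested Col5a3 probe set also turned positive under other alternatives, such as quantile normalization (0.024). Among the other named genes, signs reversed for Loxl1 without scrambled siRNA replicate 2 (-0.26) and without mrhl siRNA replicate 3 (-0.09). The range for Loxl1 was -0.26 to 0.36 over single arrays left out. Signs also reversed for Col2a1 without scrambled siRNA replicate 3 (-0.20) and without mrhl siRNA replicate 2 (-0.10), with a range of -0.20 to 0.30. For Ddr2 the sign reversed as the mean of its probe sets (0.071). The cause was not tested. Probe sets near or below 3.62, such as the second ones of Col3a1 and Col5a3, have no signal shown above background.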
